A study of Mus musculus with 8 samples.

Results

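The 7 genes described here, Fgf3, Fgf4, Fgf5, Fgf8, Fgf10, Fgf15 and Fgf17, encode secreted fibroblast growth factors (FGFs). They were chosen by gene symbol, out of 22 FGF family genes and 38610 symbols in the deposited expression table. Expression was measured by RNA-seq of poly(A) RNA in CJ9 mouse embryonic stem (ES) cells of strain 129S4/SvJae, all of them 4 days after leukemia inhibitory factor (LIF), the cytokine that holds ES cells undifferentiated, was withdrawn. Wild-type (WT) cells gave 2 libraries, cells with a knockout (KO) of Evx1as gave 3, and another 3 were labelled EVX1 KO; the series title names CRISPR as the method of knockout. Evx1as is a long noncoding RNA transcribed beside Evx1, and the protein of Evx1 is a homeobox factor made in the primitive streak. The edits themselves, and the number of clones behind each knockout, were not given in the sources used here.

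FGFs bind receptor tyrosine kinases together with heparan sulfate, and the signal runs through a chain of kinases to ERK, which turns on both target transcription factors and inhibitors of the pathway. In the early mouse embryo Fgf4 is made by pluripotent cells, Fgf5 rises as the epiblast becomes primed for differentiation, and Fgf8, with its close relative Fgf17, is made in the primitive streak, where mesoderm and endoderm form. Loss of Fgf8 blocks the migration of cells out of the streak in the mouse.

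The ligands separated into distinct patterns. Fgf5 was higher in both sets of knockout libraries than in WT, at 2.35 times the WT mean in Evx1as KO and 2.58 times in the libraries labelled EVX1 KO. Fgf3 and Fgf10 were close to 0 in Evx1as KO and near the WT level in the libraries labelled EVX1 KO. Fgf8 was lowest in Evx1as KO and highest in the libraries labelled EVX1 KO, Fgf4 took the opposite order, and Fgf17 was highest in the libraries labelled EVX1 KO. Between the knockouts the differences of Fgf8, Fgf4 and Fgf17 passed the test. Against WT only the lower Fgf8 in Evx1as KO passed, close to the threshold and not under every alternative run. For Fgf15 no difference passed the test.

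Values are FPKM (fragments per length of transcript and per library size), so levels can be compared between genes. They summed to between 531523 and 587798 per library, and 12244 to 12442 genes reached 1 FPKM in each. Read counts were not used here and absolute depth is unknown. Spacing of low values put relative depth between 0.865 and 1.19 times that of WT replicate 1. Evx1as, listed as 5730457N03Rik, measured 5.36 and 6.75 FPKM in WT, 0.0549, 0.104 and 0.0485 in the Evx1as KO libraries, and 5.01, 8.81 and 7.39 in those labelled EVX1 KO. Evx1 transcript measured 22.0 and 31.2 FPKM in WT, 2.45, 3.84 and 0.541 in the Evx1as KO libraries, and 26.3, 20.8 and 31.7 in those labelled EVX1 KO. The latter are called the libraries labelled EVX1 KO throughout, since the Evx1 transcript was not called different from WT there (log2 fold change -0.01, adjusted p = 0.988 by limma) and an edit that leaves the transcript in place would not show in it. Summed FPKM of the 6 primitive streak and mesoderm markers was 326 to 366 in WT, 39.6 to 135 in Evx1as KO and 304 to 333 in the libraries labelled EVX1 KO, with 5 of 6 lower in Evx1as KO and none at 0 in every library. The sum of 8 ES and epiblast markers was 604 to 714, 1052 to 1112 and 679 to 694 in the same order, with 5 of 8 higher in Evx1as KO and none at 0 in every library. Pou5f1, at 302 to 458 FPKM, was its largest part, and single markers differed. Means in the same order were 37.1, 106 and 98.5 for Nanog and 78.1, 93.3 and 28.6 for Dppa5a. They were 14.9, 10.7 and 11.7 for Zfp42 and 2.05, 1.58 and 0.690 for Esrrb. None of the 8 was called in the libraries labelled EVX1 KO against WT. Summed FPKM of 6 endoderm markers was 14 to 25.3, 0.940 to 6.08 and 34.2 to 60.4 in that order, with 2 of 4 tested lower in Evx1as KO. Genes were tested if they reached 1 FPKM in at least 2 of 8 libraries. Gata4 and Gata6 of endoderm, like Mesp1 and Msgn1 of the streak, stayed under 1 FPKM in every Evx1as KO library. These markers entered the test only through the groups where they are high. Sums of 6 neural, 6 trophoblast and 8 fibroblast or feeder markers were 72.6 to 91.1, 79.4 to 105 and 21.1 to 35.2 in WT, 69.0 to 92.9, 16.4 to 53.8 and 13.5 to 23.3 in Evx1as KO, and 29 to 77.4, 53.3 to 72.7 and 20.4 to 26.4 in the libraries labelled EVX1 KO, and Tpbpa of trophoblast was at 0 in every library. In Evx1as KO against WT, 1 neural marker was called higher and 0 lower, and 1 trophoblast and 1 fibroblast or feeder marker lower. The neural sum was mostly Nes. Sox1, named after its values were seen, measured 0.336 and 0.0284 FPKM in WT and 3.00, 2.06 and 3.41 in Evx1as KO. It reached 1 FPKM in Evx1as KO alone and so was tested only through the group where it is high. The part of these marker differences in the ligand levels was not tested, and in bulk RNA fewer cells of a type and less RNA per cell cannot be told apart.

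Differences were tested on log2(FPKM + 1) by limma across 13188 genes, and a gene was called at a Benjamini-Hochberg adjusted p under 0.05. Fold changes on this scale understate the change of low genes. Nothing in the labels says that replicates were separate cultures, so p-values measure the spread between these libraries, which may be technical. Against WT, 1 of the 7 ligands was called higher in Evx1as KO and 3 lower, where 13.0% of all genes were called higher and 11.4% lower. In the libraries labelled EVX1 KO, 1 of 7 was called higher and 0 lower, against 0.690% and 0.554% of all genes. At an unadjusted p under 0.05 limma gave 2 higher and 0 lower ligands in the latter comparison, beside 2800 of 13188 genes in either direction. Between the knockouts, 4 of 7 were higher and 1 lower in the libraries labelled EVX1 KO, against 10.7% and 11.3% of all genes. Median log2 fold changes of the 7 ligands were 0.20, 0.26 and 1.37 in these comparisons, and those of all genes tested were 0.02, 0.02 and -0.00. Both comparisons against WT share the same WT libraries, so their values are given side by side. All 7 ligands passed the filter on low values (at least 1 FPKM in at least 2 of 8 libraries), Fgf3 and Fgf10 only through WT and the libraries labelled EVX1 KO.

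**Figure D1:**
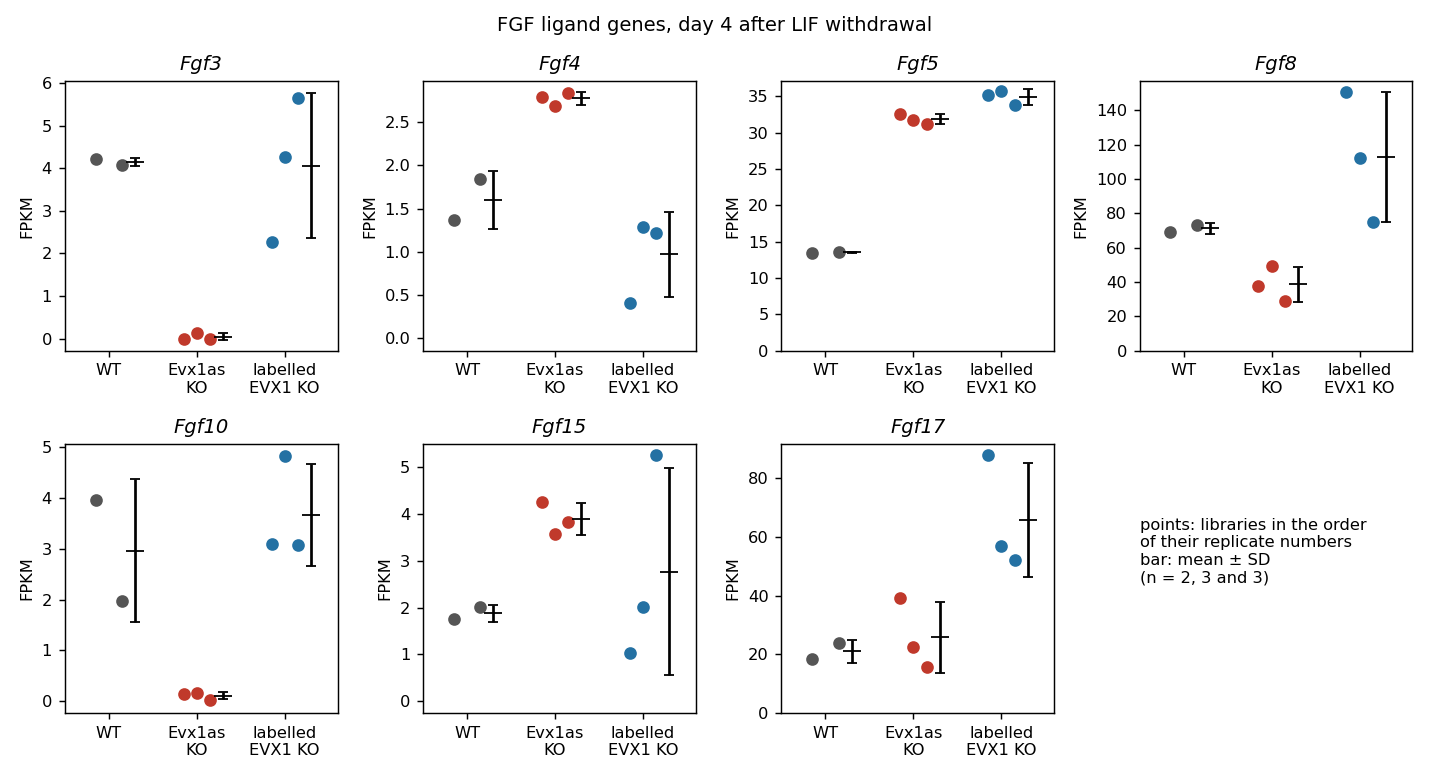
FPKM of each of the 7 FGF ligand genes (vertical axes, linear, each with its own range) in WT, Evx1as KO and the libraries labelled EVX1 KO, with 1 point per library and bars for mean ± SD (n = 2, 3 and 3). Fgf3 and Fgf10 lie near 0 in Evx1as KO, Fgf5 lies between 31.2 and 35.8 FPKM in all 6 knockout libraries and near 13.5 in WT, and Fgf8 and Fgf17 reach their highest values in the libraries labelled EVX1 KO.

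Fgf8, the streak ligand needed for cells to leave the primitive streak, was the most abundant of the 7 in WT. It measured 69.0 and 73.2 FPKM in WT, 37.9, 49.1 and 28.9 in the Evx1as KO libraries, and 151, 112 and 75.1 in those labelled EVX1 KO. The 3 groups did not overlap, with Evx1as KO below WT and the libraries labelled EVX1 KO above it, although replicate 3 of the latter exceeded the higher WT library only narrowly. In Evx1as KO the mean was 38.6 ± 10.1 FPKM (SD, n = 3) against 71.1 ± 2.95 (SD, n = 2) in WT, 0.543 times the WT mean (log2 fold change -0.90 ± 0.28 SE, adjusted p = 0.0453, limma). That call lay close to the threshold and was lost when WT replicate 1 (adjusted p = 0.143), WT replicate 2 (0.178), Evx1as KO replicate 1 (0.0947), Evx1as KO replicate 3 (0.130) or EVX1 KO replicate 2 (0.0669) was left out, and without the filter on low values (0.118). The mean of the libraries labelled EVX1 KO, 113 ± 37.8 FPKM (SD, n = 3), was 1.58 times that of WT, which did not pass the test (log2 fold change 0.60, 95% interval -0.03 to 1.23, adjusted p = 0.254, limma). Between the knockouts the difference passed, at 2.92 times the Evx1as KO mean in the libraries labelled EVX1 KO (log2 fold change 1.50 ± 0.25 SE, adjusted p = 0.00448, limma). Fgf8 lay on chromosome 19 from 45811287 to 45817374 in the deposited table, whose genome build was not given in the sources used here.

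Fgf17, which binds the same receptor forms as Fgf8, was the second ligand of this subfamily. It measured 18.4 and 23.9 FPKM in WT, 39.3, 22.5 and 15.9 in the Evx1as KO libraries, and 87.9, 56.9 and 52.2 in those labelled EVX1 KO. The Evx1as KO libraries spread on both sides of WT, and every library labelled EVX1 KO lay above every other library. Against WT the mean of the libraries labelled EVX1 KO was 3.11 times as high (65.6 ± 19.4 against 21.1 ± 3.87 FPKM, SD, n = 3 and 2), yet the test was missed (log2 fold change 1.56, 95% interval 0.79 to 2.33, adjusted p = 0.0635, limma). The call was gained when Evx1as KO replicate 1 (adjusted p = 0.0433) or EVX1 KO replicate 3 (0.0424) was left out. Against Evx1as KO, whose mean was 25.9 ± 12.1 FPKM (SD, n = 3), the difference was called (log2 fold change 1.37 ± 0.30 SE, adjusted p = 0.0146, limma), and it was lost without the filter on low values (0.0533). Evx1as KO did not pass against WT (log2 fold change 0.20, 95% interval -0.57 to 0.97, adjusted p = 0.705, limma), and without its replicate 1 the value was -0.14.

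Genes on the chromosome of Fgf17 moved together between libraries. Over the 323 genes of chromosome 14 whose mean reached 5 FPKM, the median level relative to the mean of the 8 libraries (log2 scale) was 0.05 and -0.03 in WT, 0.13, -0.36 and -0.34 in Evx1as KO, and 0.17, 0.18 and 0.16 in the libraries labelled EVX1 KO. Evx1as KO replicates 2 and 3 thus stood below the other 6 libraries over this chromosome. Fgf17 itself ranged more widely on the same scale, from -1.04 in Evx1as KO replicate 3 to 1.36 in EVX1 KO replicate 1. With the genes of chromosome 14 centred on their median in each library, an alternative chosen after seeing the data, the log2 fold change of Fgf17 became 0.40 in Evx1as KO against WT (adjusted p = 0.301), 1.40 for those labelled EVX1 KO against WT (0.0440) and 1.00 between the knockouts (0.0191, all limma). Fgf17 was placed on chromosome 14 from 71036011 to 71042075, and an unnamed transcript, at most 0.859 FPKM, overlapped it by 2197 bp.

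**Figure D2:**
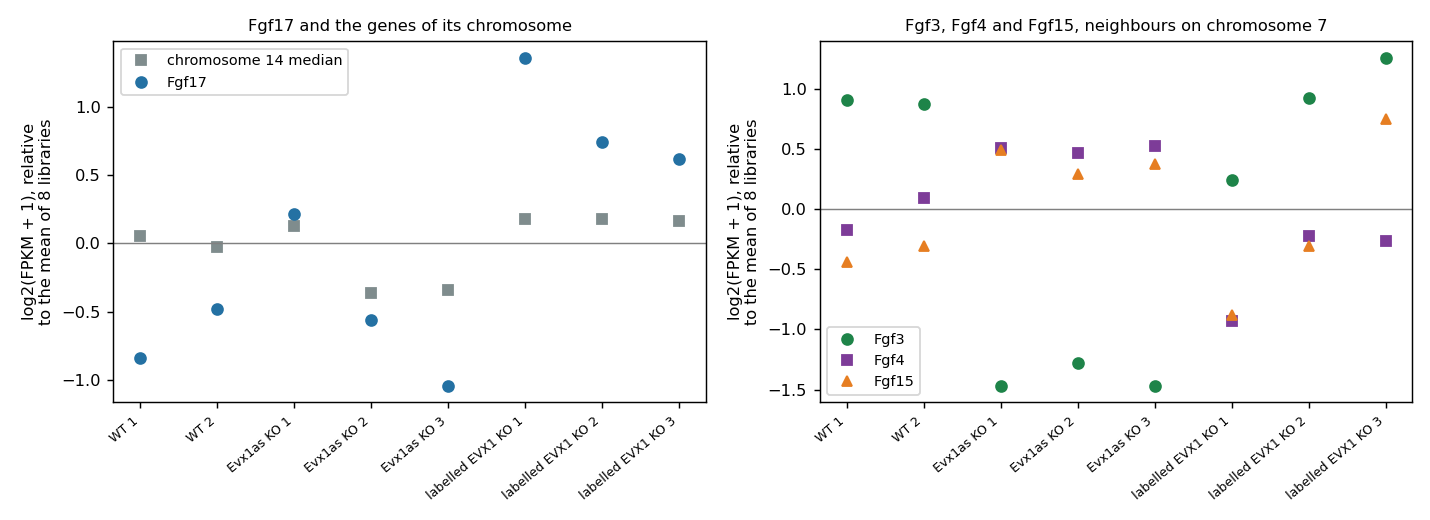
Level relative to the mean of 8 libraries (vertical axes, log2(FPKM + 1)) in each library, for Fgf17 and the median of 323 genes of chromosome 14 on the left, and for the neighbouring genes Fgf3, Fgf4 and Fgf15 of chromosome 7 on the right. On the left the chromosome median is lowest in Evx1as KO replicates 2 and 3, at -0.36 and -0.34, and Fgf17 is highest in the libraries labelled EVX1 KO; on the right Fgf3 is lowest in the 3 Evx1as KO libraries, where Fgf4 and Fgf15 are above their means.

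Fgf5, the ligand that marks the primed epiblast, had the tightest replicates of the 7 in each group in proportion to its level. It measured 13.5 and 13.6 FPKM in WT, 32.6, 31.7 and 31.2 in the Evx1as KO libraries, and 35.2, 35.8 and 33.8 in those labelled EVX1 KO. All 6 knockout libraries lay above both WT libraries, and those labelled EVX1 KO lay just above those of Evx1as KO. The log2 fold change against WT was 1.18 ± 0.08 SE in Evx1as KO (adjusted p = 2.39e-04) and 1.31 ± 0.08 SE in the libraries labelled EVX1 KO (adjusted p = 7.56e-04, both limma), and both calls were kept under every alternative run. Fgf5 was the only ligand called against WT in the libraries labelled EVX1 KO. Between the knockouts the difference was not called, and its interval was narrow (log2 fold change 0.13, 95% interval -0.03 to 0.29, adjusted p = 0.225, limma). The deposited table placed Fgf5 on chromosome 5 from 98683202 to 98706052. Its nearest neighbours with at least 1 FPKM, 1700007G11Rik and Prdm8, were not called in either comparison against WT. Means of 1700007G11Rik were 0.683, 1.88 and 1.51 FPKM in WT, Evx1as KO and the libraries labelled EVX1 KO. Those of Prdm8 were 1.20, 1.86 and 1.76, so both genes had higher means in the knockouts, as Fgf5 did.

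Fgf3 and Fgf10 both act through the epithelial form of Fgfr2, Fgf3 in the tail bud, inner ear and hindbrain and Fgf10 in the mesoderm of limb and lung buds and of the second heart field. Fgf3 measured 4.21 and 4.08 FPKM in WT, 0, 0.140 and 0 in the Evx1as KO libraries, and 2.27, 4.27 and 5.64 in those labelled EVX1 KO. Evx1as KO replicates 1 and 3 were thus listed at 0, while the libraries labelled EVX1 KO lay on both sides of WT. Multiplied by relative depth, the Fgf3 values fell on whole multiples of a common step (within 0.05 plus 0.5% of the value), an estimate made after seeing the data in which a step may hold more than 1 fragment. Such steps were found for Fgf3, Fgf4, Fgf10 and Fgf15 and not for Fgf5, Fgf8 and Fgf17, and only 41.2% to 44.2% of low-value genes lay at the step that gave each library's relative depth. In these steps Fgf3 amounted to 33 and 38 in WT, 0, 1 and 0 in Evx1as KO, and 18, 33 and 46 in the libraries labelled EVX1 KO. The fall in Evx1as KO was called (log2 fold change -2.30 ± 0.26 SE, adjusted p = 0.00122, limma) under every alternative run, and its fitted size depended on the pseudocount, being -4.99 with 0.1 FPKM added. Fgf3 passed the filter only through WT and the libraries labelled EVX1 KO, the groups where it is high. Fgf3 was higher in the libraries labelled EVX1 KO than in Evx1as KO (log2 fold change 2.22 ± 0.24 SE, adjusted p = 6.60e-04, limma; 4.87 with 0.1 FPKM added). The libraries labelled EVX1 KO did not differ detectably from WT (log2 fold change -0.08, 95% interval -0.68 to 0.51, adjusted p = 0.880, limma), and the sign turned to 0.20 without EVX1 KO replicate 1.

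Fgf10 measured 3.96 and 1.97 FPKM in WT, 0.137, 0.161 and 0.0302 in the Evx1as KO libraries, and 3.09, 4.83 and 3.08 in those labelled EVX1 KO. Evx1as KO lay below every other library, and the libraries labelled EVX1 KO overlapped WT. In whole steps, counted as for Fgf3, the values were 134 and 79 in WT, 4, 5 and 1 in Evx1as KO, and 106, 162 and 109 in the libraries labelled EVX1 KO. The tolerance grows with the value and admits any number at the largest of these, so the rule could not fail there. The largest deviation found was 0.10 of a step. The fall in Evx1as KO was called (log2 fold change -1.79 ± 0.25 SE, adjusted p = 0.00237, limma) under every alternative run, with a fitted size of -3.85 with 0.1 FPKM added. Like Fgf3, Fgf10 passed the filter only through WT and the libraries labelled EVX1 KO, where it is high. Between the knockouts Fgf10 was higher in the libraries labelled EVX1 KO (log2 fold change 2.05 ± 0.22 SE, adjusted p = 6.94e-04, limma; 4.20 with 0.1 FPKM added). Against WT these libraries did not pass (log2 fold change 0.26, 95% interval -0.30 to 0.82, adjusted p = 0.575, limma), and the sign turned to -0.11 without WT replicate 2. Fgf10 was placed on chromosome 13 from 119503505 to 119581380.

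The promoters of Fgf3 and Fgf10, which both fell in Evx1as KO, and of Fgf5, which rose in both knockouts, are shown for comparison as the 250 bases before the annotated start site. They come from RefSeq on build GRCm38.p6, plus strand, 5′ to 3′, and 4 of the 7 ligands (these and Fgf4) were matched. Capitals mark matches to the motifs searched.
Fgf3 (chr7:144838362-144838611): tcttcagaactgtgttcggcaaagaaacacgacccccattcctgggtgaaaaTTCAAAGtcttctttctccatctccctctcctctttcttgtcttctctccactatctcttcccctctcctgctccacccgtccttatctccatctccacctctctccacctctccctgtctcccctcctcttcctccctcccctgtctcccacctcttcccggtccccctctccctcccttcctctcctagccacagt
Fgf10 (chr13:118714449-118714698): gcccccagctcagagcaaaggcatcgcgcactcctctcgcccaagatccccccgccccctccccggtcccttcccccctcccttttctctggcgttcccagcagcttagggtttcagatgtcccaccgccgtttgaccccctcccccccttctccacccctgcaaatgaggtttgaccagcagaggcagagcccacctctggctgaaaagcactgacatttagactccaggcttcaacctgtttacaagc
Fgf5 (chr5:98253934-98254183): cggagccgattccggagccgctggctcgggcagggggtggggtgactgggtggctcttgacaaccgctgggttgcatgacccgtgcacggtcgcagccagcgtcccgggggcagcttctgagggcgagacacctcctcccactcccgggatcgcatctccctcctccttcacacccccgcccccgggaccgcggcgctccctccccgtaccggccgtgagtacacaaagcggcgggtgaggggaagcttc
The motifs, searched on both strands of the 300 bases from 250 before to 50 after the start, were TCACACCT (T-box), CTTTGAA (TCF/LEF), ATGCAAAT (octamer), CATTGTT (SOX), CCGGAAG (ETS), TAATTA (homeobox factors) and the TATA box TATAAA. The Fgf3 promoter held 1 TCF/LEF match, on the minus strand at bases 53 to 59 of the sequence shown, and 5.14% of 32851 promoters of the same length held at least 1. The Fgf5 window held 1 TATAAA match, at bases 285 to 290 of the window, past the annotated start, and 13.6% of promoters held it. No other match was found in the 4 windows; the shares of all promoters with the other motifs were 1.28% for T-box, 1.74% for octamer, 3.78% for SOX, 8.86% for ETS and 5.29% for homeobox. The Fgf4 and Fgf5 windows were rich in CpG, with 28 and 29 CpG and a GC content of 69.7% and 68.3%, where the medians of all promoters were 7 CpG and 52.7%. Fgf3 and Fgf10 held 14 and 10 CpG at 59.3% and 60.7% GC.

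Fgf4, the ligand by which pluripotent cells stimulate ERK in themselves and their neighbours, ran opposite to Fgf8. It measured 1.36 and 1.84 FPKM in WT, 2.79, 2.69 and 2.84 in the Evx1as KO libraries, and 0.404, 1.29 and 1.22 in those labelled EVX1 KO. The 3 groups did not overlap, with Evx1as KO highest and the libraries labelled EVX1 KO lowest. In whole steps these values were 30 and 48, then 53, 54 and 61, then 9, 28 and 28. Between the knockouts the difference was called (log2 fold change -0.97 ± 0.20 SE, adjusted p = 0.0104, limma; -1.56 with 0.1 FPKM added), with 2.86 times as much FPKM in Evx1as KO. Neither knockout passed against WT: the log2 fold change was 0.54 in Evx1as KO (95% interval 0.04 to 1.04, adjusted p = 0.106) and -0.43 in the libraries labelled EVX1 KO (95% interval -0.93 to 0.07, adjusted p = 0.300, both limma). The rise in Evx1as KO was called when only these groups entered the fit (adjusted p = 0.0417) and when EVX1 KO replicate 1 was left out (0.0291).

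Fgf15, the mouse counterpart of human FGF19 and a hormone-like FGF of the midbrain, hindbrain and later the gut, gave no difference that passed the test. It measured 1.75 and 2.01 FPKM in WT, 4.25, 3.57 and 3.84 in the Evx1as KO libraries, and 1.02, 2.02 and 5.27 in those labelled EVX1 KO. Every Evx1as KO library exceeded WT, while the libraries labelled EVX1 KO spread across the range of all the others. In whole steps these values were 22 and 30, then 46, 41 and 47, then 13, 25 and 69. The Evx1as KO mean was 2.07 times that of WT (log2 fold change 0.76, 95% interval -0.10 to 1.62, adjusted p = 0.172, limma), and it was called in the fit of these groups alone (adjusted p = 0.0115) or without EVX1 KO replicate 3 (0.0216). In the libraries labelled EVX1 KO the log2 fold change against WT was 0.23 (95% interval -0.63 to 1.08, adjusted p = 0.765), and -0.22 without replicate 3. Against Evx1as KO it was -0.53 (95% interval -1.30 to 0.23, adjusted p = 0.285), and without replicate 3 it was -0.98 and was called (adjusted p = 0.0103, all limma).

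**Figure D3:**
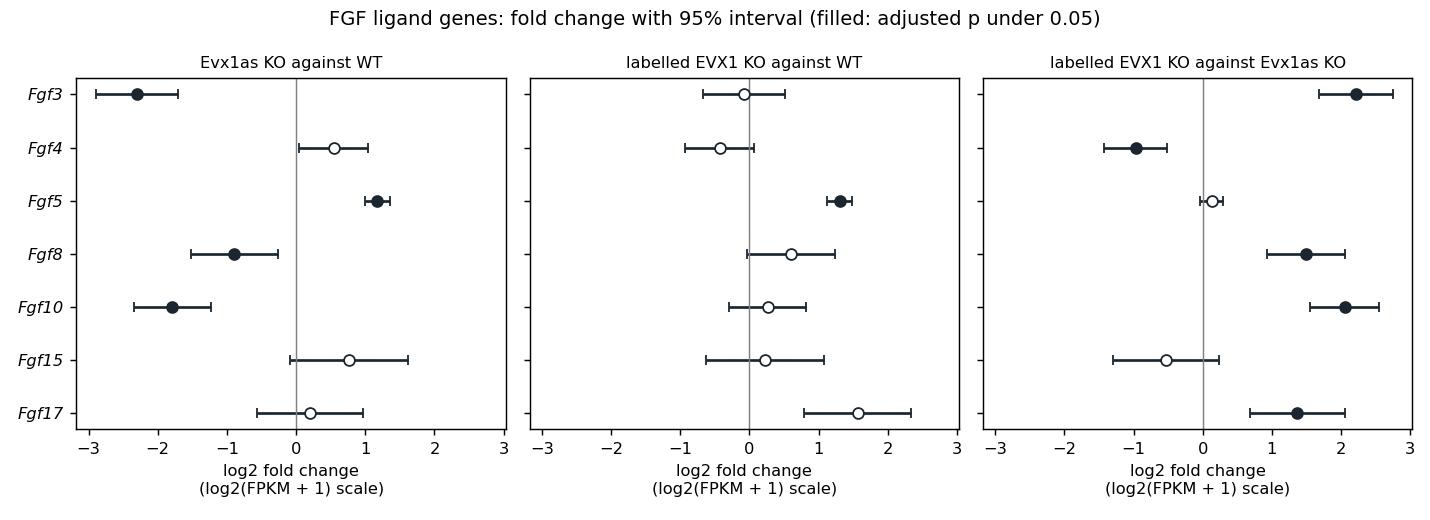
Log2 fold change of each ligand on the log2(FPKM + 1) scale (horizontal axis) with its 95% interval from limma in 3 comparisons; filled points have an adjusted p under 0.05. Fgf5 is the only filled point against WT for the libraries labelled EVX1 KO, and 5 of 7 points are filled in the comparison of the knockouts.

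Fgf3, Fgf4 and Fgf15 lie side by side on chromosome 7 in a span of 62.3 kb, from 152024516 to 152029253, 152047290 to 152051148 and 152082436 to 152086856 in the deposited table. Gaps of 18.0 kb and 31.3 kb separate them, and Ccnd1, which encodes cyclin D1, follows 29 kb further on. In Evx1as KO these neighbours went different ways: Fgf3 was listed at or near 0, while Fgf4 and Fgf15 stood at 1.73 and 2.07 times the WT mean without passing the test. Ccnd1 fell from a mean of 63.2 FPKM in WT to 34.9 in Evx1as KO (-0.86 on the log2 scale, adjusted p = 0.00702, limma), and stood at 61.2 in the libraries labelled EVX1 KO. A predicted gene, Gm17685, overlapped Fgf15 by 931 bp and reached at most 1.18 FPKM; whether the counting used strand was not given in the sources used here, so reads of the overlap cannot be assigned.

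The pooled level of the ligands and its makeup were also set out by library. Summed over the 7 genes, FPKM was 112 and 121 in WT, 117, 110 and 82.7 in Evx1as KO, and 281, 217 and 176 in the libraries labelled EVX1 KO. The libraries labelled EVX1 KO lay above all others, and Evx1as KO replicate 3 lay below. Fgf8 made up 61.5% and 60.7% of the sum in WT, 32.4%, 44.7% and 34.9% in Evx1as KO, and 53.7%, 51.6% and 42.6% in the libraries labelled EVX1 KO. Fgf5 made up 12.0% and 11.3% in WT and 27.9%, 28.9% and 37.8% in Evx1as KO, with 12.6%, 16.5% and 19.1% in the libraries labelled EVX1 KO. Together Fgf5, Fgf8 and Fgf17 held 89.9% to 97.6% of the sum in every library. These sums follow from the values above and were not tested.

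**Figure D4:**
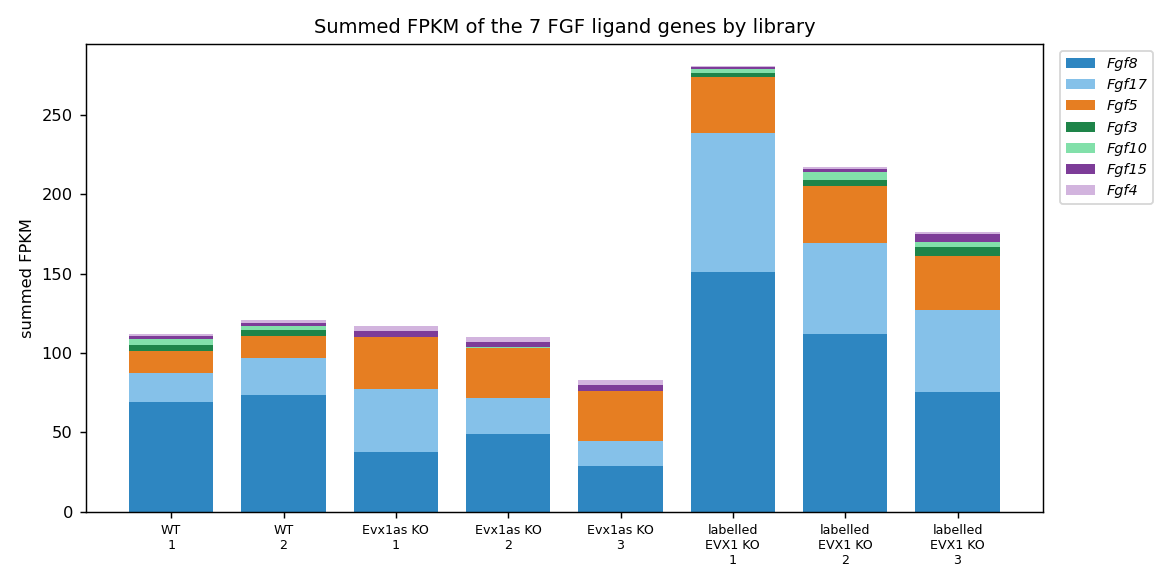
Summed FPKM of the 7 FGF ligand genes (vertical axis, from 0) in each of the 8 libraries, with each gene's part stacked in its own colour. The sum is 82.7 to 121 in WT and Evx1as KO and 176 to 281 in the libraries labelled EVX1 KO, and the Fgf5 part is 27.9% to 37.8% in Evx1as KO and 11.3% to 19.1% in the other 5 libraries.

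Order of mean levels, from high to low, was Fgf8, Fgf17, Fgf5, Fgf3, Fgf10, Fgf15 and Fgf4 in WT. In Evx1as KO it was Fgf8, Fgf5, Fgf17, Fgf15, Fgf4, Fgf10 and Fgf3. Single libraries of neighbours in these orders overlapped for Fgf8, Fgf5 and Fgf17 in Evx1as KO, where Fgf17 at 39.3 FPKM exceeded Fgf8 at 37.9 in replicate 1, for Fgf10 and Fgf3 in Evx1as KO, and for Fgf10 and Fgf15, and for Fgf15 and Fgf4, in WT. Fgf8, Fgf17 and Fgf5 were also the 3 highest in the libraries labelled EVX1 KO, in that order of means, and Fgf8 and Fgf17 overlapped there.

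Across the 8 libraries, which share groups and so are not independent points, Fgf3 and Fgf10 followed each other closest among the ligands (Pearson r = 0.94 on log2(FPKM + 1)). Fgf8 and Fgf4 had the most negative coefficient (r = -0.93), and Fgf5 and Fgf8 had one near 0 (r = 0.02). Of 10672 genes searched, Mesp1, a transcription factor of early mesoderm, was the most like Fgf3 (r = 0.99), with mean levels of 20.5, 0.415 and 19.9 FPKM in WT, Evx1as KO and the libraries labelled EVX1 KO. Capn2 and Edem3 came next with nearly the same coefficient (r = 0.99 for both). Closest to Fgf10 was Prdm6 (r = 1.00; 3.22, 0 and 4.36 FPKM), listed at 0 in every Evx1as KO library, followed by Gata4, a transcription factor of heart and endoderm (r = 0.99; 11.4, 0.524 and 19.8 FPKM), and by Rapgef6 (r = 0.99). Closest to Fgf8 was Sall3, a zinc finger gene (r = 0.99), and to Fgf17 it was Tdgf1, which encodes the Nodal co-receptor Cripto (r = 0.97; 114, 132 and 179 FPKM). Amer1 (r = 0.98), Cetn2 (r = 0.99) and Abcg2 (r = 0.97) came first for Fgf5, Fgf4 and Fgf15.

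Of the other 15 FGF family genes, which include intracellular members, only Fgf13 exceeded 3 FPKM in any library. Fgf6, Fgf16 and Fgf20 were listed at 0 in every library, and only Fgf13, Fgf18 and Fgf22 reached 1 FPKM in at least 2 libraries. Fgf18, a relative of Fgf8 and Fgf17, measured 1.34 and 2.01 FPKM in WT, 0.996, 0.418 and 0.294 in the Evx1as KO libraries, and 0.943, 0.870 and 0.915 in those labelled EVX1 KO. It was called lower in Evx1as KO (-0.78 on the log2 scale, adjusted p = 0.0322, limma), but it reached 1 FPKM in the WT libraries alone and so passed the filter only through the group where it is high. The call was lost without Evx1as KO replicates 2 or 3 or EVX1 KO replicate 2, without the filter, in the fit of these groups alone and with the replicate numbers as a block, and with either WT library left out the gene was not tested. Fgf13, an intracellular member of the family, measured 6.78 and 8.64 FPKM in WT, 5.52, 4.05 and 5.05 in the Evx1as KO libraries, and 5.04, 6.06 and 7.19 in those labelled EVX1 KO. It was also called lower in Evx1as KO (-0.57, adjusted p = 0.0412, limma) and lost the call when any 1 of the WT or Evx1as KO libraries or EVX1 KO replicate 2 was left out, without the filter and with the block. Fgf22 was called between the knockouts (1.32, adjusted p = 0.00305, limma), with a mean of 0.298 FPKM in Evx1as KO and 2.22 in the libraries labelled EVX1 KO, and reached 1 FPKM in the latter and WT replicate 2 alone. Fgf14, another intracellular member, stood at 0.738, 0.590 and 0.502 FPKM in Evx1as KO and at 0.0490 or below elsewhere, and was under the filter.

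Receptors and partners of the ligands were described from lists of pathway genes, whose counts in Evx1as KO against WT stand beside 13.0% of all genes called higher and 11.4% lower (5079 of 13188 at an unadjusted p under 0.05). Of 7 receptor and co-receptor genes, 4 were tested and 2 were called higher in Evx1as KO, Fgfr2 and Fgfr3, and 0 lower, as at an unadjusted p under 0.05 (limma). Fgfr2 rose from a mean of 2.27 ± 0.510 to 5.51 ± 1.45 FPKM (SD, n = 2 and 3; adjusted p = 0.0144, limma), and Fgfr3 from 0.416 ± 0.106 to 1.62 ± 0.419 (adjusted p = 0.0110, limma); Fgfr3 reached 1 FPKM in Evx1as KO alone and so passed the filter only through the group where it is high. Fgfr1 carried most of the receptor transcript, with means of 120, 103 and 100 FPKM in WT, Evx1as KO and the libraries labelled EVX1 KO, and was not called. Among 4 tested genes that bind or release FGFs, the membrane protein gene Flrt3 fell (4.59 to 1.49 FPKM, adjusted p = 0.00367) and the carrier gene Fgfbp3 rose (1.54 to 3.82 FPKM, adjusted p = 0.0243, both limma). Of 20 tested genes of heparan sulfate synthesis and trimming, Gpc1, Ugdh and Hs6st1 rose and Gpc3 and Ndst1 fell, a share near that of all genes. Gpc3, a glypican core protein, had the largest change, from 68.1 ± 24.6 to 22.2 ± 1.28 FPKM (SD, n = 2 and 3; adjusted p = 0.00190, limma), against 87.4 ± 12.0 in the libraries labelled EVX1 KO.

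Downstream of the receptors, the relay gene Mapk3, which encodes ERK1, rose in Evx1as KO from 96.5 and 82.3 FPKM in WT to 138, 129 and 155 (adjusted p = 0.00681, limma). Among 13 genes of ERK feedback inhibitors, Spry1 rose and the MAP kinase phosphatase genes Dusp4, Dusp5 and Dusp6 fell, and the list's median log2 fold change was -0.33, beside 0.02 for all genes. Dusp4 fell from 169 ± 12.4 to 62.4 ± 18.1 FPKM (SD, n = 2 and 3; adjusted p = 0.00298, limma) and stood at 114 ± 21.3 in the libraries labelled EVX1 KO. Dusp5 means were 40.4, 22.1 and 22.4 FPKM in WT, Evx1as KO and the libraries labelled EVX1 KO. In that order Dusp6 stood at 63.0, 37.8 and 41.1, and Spry1 at 6.95, 14.2 and 11.5. For all of these genes the libraries labelled EVX1 KO lay on the same side of WT as Evx1as KO, without overlap and without a call. Of 11 tested ERK-induced transcription factor genes, Myc, Ier3 and Junb fell and 0 rose (5 and 2 at an unadjusted p under 0.05, limma). Taken in both directions together, the counts of feedback and ERK-induced genes called lay near the share of all genes. By direction, 1 of 13 feedback and 0 of 11 ERK-induced genes were higher, beside 13.0% of all genes. Lower calls were 3 of 13 and 3 of 11, beside 11.4% of all genes, and this lean was not tested. Etv4 and Etv5, ETS factors used as readouts of FGF signalling, were not called, with log2 fold changes of -0.81 and 0.17. The lists of other FGF family genes, receptors, binding, heparan sulfate, relay, feedback and ERK-induced genes held 74 tested genes. Of these, limma called 0 in the libraries labelled EVX1 KO against WT, beside 164 of all 13188 genes. At an unadjusted p under 0.05 limma gave 20 of them, beside 2800 of all genes.

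Of 17 genes listed as regulators of these ligands, 9 were called lower and 7 higher in Evx1as KO. Of all genes, 11.4% were called lower and 13.0% higher. The list was chosen with earlier results of these data known, and it holds Evx1, which lies beside Evx1as. Its count is therefore no test of the ligands' regulators. The streak and mesoderm factor genes Msgn1, Mesp1, Evx1 and Cdx2 fell most, with log2 fold changes of -4.05, -3.97, -3.20 and -2.67. Of those that rose, Foxd3, Otx2 and Sox2, genes of pluripotent or neural progenitor cells, had log2 fold changes of 2.07, 1.75 and 1.68. Msgn1 and Mesp1 reached 1 FPKM only outside Evx1as KO, and Foxd3 only in Evx1as KO, so these passed the filter through the groups where they are high. In the libraries labelled EVX1 KO against WT, Msgn1 was lower (-2.62, adjusted p = 0.0124) and Otx2 higher (1.64, adjusted p = 0.0124, both limma), at 35.8 ± 3.09 FPKM (SD, n = 3) against 10.9 ± 1.92 (SD, n = 2). The Msgn1 call was lost without either WT library, with a pseudocount of 0.1 and without the filter, and the Otx2 call without EVX1 KO replicate 2. Against the shared WT libraries, Otx2 thus had log2 fold changes of 1.75 and 1.64 where Fgf5 had 1.18 and 1.31. Otx2 lies on chromosome 14, whose genes moved together between libraries as set out for Fgf17. Of 36 pathway and regulator genes called in Evx1as KO against WT, 14 kept the call with each library left out in turn, among them Flrt3, Gpc3, Dusp4, Msgn1, Mesp1, Cdx2, Foxd3, Otx2 and Sox2. The other 22 calls were lost without at least 1 library, most often WT replicate 2. Among them were Fgfr2, Fgfr3, Fgfbp3, Gpc1, Ugdh, Hs6st1, Ndst1, Mapk3, Spry1, Dusp5, Dusp6, Myc, Ier3 and Junb. The regulators T, Eomes, Pou5f1, Tcf7 and Tcf7l1 lost their calls too, and T and Eomes also belong to the streak and mesoderm markers above.

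**Figure D5:**
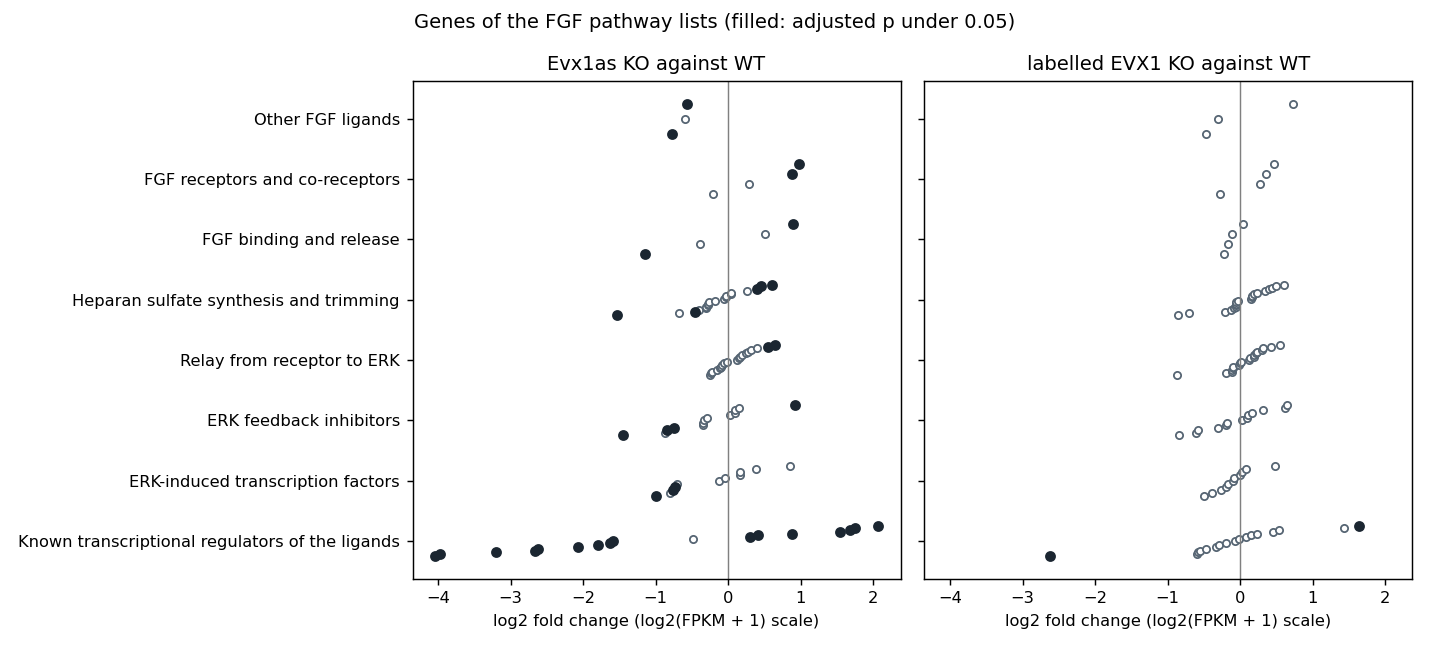
Log2 fold change on the log2(FPKM + 1) scale (horizontal axes) of each tested gene in 8 lists of FGF pathway and regulator genes, for Evx1as KO against WT on the left and the libraries labelled EVX1 KO against WT on the right; filled points have an adjusted p under 0.05 by limma. Filled points occur in all 8 lists on the left, and on the right in the regulator list alone, where they are Msgn1 and Otx2.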

How the data were processed

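Per the labels, mRNA libraries were made with the TruSeq Stranded mRNA kit. The authors deposited 1 table of FPKM for all 8 libraries. The submitters' processing notes list CASAVA and TopHat2 2.0.11 and the builds mm10 and mm9 without a role; the FPKM program, annotation, strand setting and build of the table were not given in the sources used here. Of 42245 lines with values, symbols on several lines (2660) carried identical values and were used once.

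Groups and replicate numbers came from the labels. The 13188 genes that reached 1 FPKM in 2 or more of the 8 libraries entered 1 limma model (3.58.1, R 4.3.3) of log2(FPKM + 1) with a mean per group and an empirical Bayes trend, two-sided, with Benjamini-Hochberg adjustment over all genes and a threshold of 0.05. The steps were tested on simulated data. Intervals are 95%. Tables were made in pandas 2.3.3 with numpy 2.4.6 under Python 3.11.15, and figures in matplotlib 3.10.9.

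Members and lists were chosen with earlier results of these data known. Named genes were the 7 ligands, up to 4 genes per list by largest change against WT in Evx1as KO or the libraries labelled EVX1 KO, the 3 genes most like each ligand (predicted genes passed over), Evx1 and Evx1as. A selection is printed. Genes beyond it (Ugdh, Hs6st1, Dusp6, Ier3, Etv5, T, Eomes, Pou5f1, Tcf7, Tcf7l1, Gata6, Dppa5a, Zfp42, Esrrb and flanking genes) were named after their values were seen. A result of the relay list is not reported here. Alternatives were a pseudocount of 0.1, no filter, a filter on a mean of 1 FPKM, median-ratio scaling, a fit of the compared groups alone, a replicate block, leaving out each library and, added after seeing the data, centring of chromosome 14.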

Additional observations from a re-analysis of the deposited data

How the results depend on the processing

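Among 315 refits of the ligands' fold changes under the alternatives, 296 kept direction and side of the threshold. The direction turned in 4, none of them called, with ranges over left-out libraries: Fgf17 in Evx1as KO against WT (-0.14 without Evx1as KO replicate 1, to 0.49), and in the libraries labelled EVX1 KO against WT Fgf3 (-0.31 to 0.20, without EVX1 KO replicate 1), Fgf10 (-0.11, without WT replicate 2, to 0.63) and Fgf15 (-0.22, without EVX1 KO replicate 3, to 0.59). The number of ligands called was 3 to 5 with 1 library left out for Evx1as KO against WT (4 with all), 1 to 2 for the libraries labelled EVX1 KO against WT (1 with all) and 5 to 6 between the knockouts (5 with all). The fit of the compared groups alone called 6, 1 and 5 ligands in these comparisons, and the fit without the filter called 3, 1 and 4. The number became 2 for the libraries labelled EVX1 KO against WT with chromosome 14 centred, through Fgf17. Of all genes, 3230, 164 and 2903 were called in these comparisons, and 1414 to 3427, 4 to 643 and 1401 to 2671 with 1 library left out. The count of 164 fell to 28 without the filter, 35 in the fit of the 2 groups alone and 28 with the replicate block. The replicate block left 4, 1 and 5 ligands called. Whether replicate numbers pair the samples could not be settled. Same-numbered libraries had correlations of deviations from -0.099 to 0.076 over 7 pairs, and 4 of 8 libraries correlated best with their own number. Deviations from the mean of 2 or 3 libraries are tied to each other, so these correlations are not independent. The cause of these changes was not tested. With 2 WT libraries, each carries much of every comparison against WT. Values under about 1 FPKM rest on few fragments, and their fitted fold changes depend on the pseudocount.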

Other observations

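Genes flanking the ligands were measured as well. On chromosome 19 near Fgf8, Kcnip2, which encodes a potassium channel partner, rose in Evx1as KO from a mean of 0.276 FPKM in WT to 2.96 (log2 fold change 1.60, adjusted p = 0.00233, limma), having passed the filter only through Evx1as KO, and Fbxw4, an F-box gene, rose from 6.04 to 11.7 FPKM (0.85, adjusted p = 0.0245, limma), while Fgf8 was lower there. Npm3, the named gene next to Fgf8, stood at means of 70.6, 70.6 and 91.2 FPKM in WT, Evx1as KO and the libraries labelled EVX1 KO and was not called against WT. On chromosome 14 near Fgf17, Hr fell in Evx1as KO from 2.93 to 1.30 FPKM (-0.80, adjusted p = 0.0239, limma). Its Evx1as KO values were 1.90, 1.28 and 0.726 FPKM, lowest in replicates 2 and 3, where the chromosome median was also low. The part of that shift in the fall of Hr was not tested. Dmtn, Xpo7, Fam160b2, Nudt18 and Reep4 were not called against WT. Oraov1, between Fgf15 and Ccnd1 on chromosome 7, was not called in Evx1as KO (-0.39, adjusted p = 0.0561, limma).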
